A study of Solanum lycopersicum with 24 samples.

Results

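In the absence of salt, 123 tomato genes were more highly expressed in roots of the *res* mutant than in WT roots and less expressed in its leaflets than in WT leaflets. They were found among 20429 genes that carry a LOC number, the identifier of a gene locus that has no symbol. The genes were selected on the measured values: the *res* group mean had to be at least 1.3 higher than the WT mean in control roots and at least 1.3 lower in control leaflets, on the log2 scale on which 1 is a 2-fold difference. Genes were left out where the WT root level was at least 1.5 higher in salt than in control and *res* and WT roots in salt lay within 1 of each other. This removed 6 of the 129 genes that met the control conditions. Of the 805 genes that met the root condition 16.0% also met the leaflet condition, and these were 18.0% of the 715 genes that met the latter. Over all 67795 probe sets on the array, 189 met both control conditions and 13 met the opposite ones, lower in *res* roots and higher in *res* leaflets. A further 52 probe sets were higher in both tissues and 78 were lower in both, by the same 1.3.

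The plants were *Solanum lycopersicum* cv. Moneymaker (WT) and *res* (*restored cell structure by salinity*), a mutant in that background whose causal gene is not given in the sources used here. They were grown in hydroponics, and the salt treatment, at an age of 6 weeks, lasted 5 days, with 100 mM NaCl on the first day and 200 mM from then on. Roots and leaflets of the first fully expanded leaf were taken, by the labels, before the treatment (control) and at its end (salt), so that a difference between salt and control also holds 5 days of growth. Each of the 8 groups (*res* or WT, root or leaflet, control or salt) had 3 arrays, and each array carried RNA pooled from 3 plants.

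Jasmonate is a lipid-derived hormone of wounding and defence that restrains growth when its signalling is active. The *res* mutant is known for jasmonate accumulation in roots without any stress, chlorotic leaves and inhibited growth, all of which recede when the plants are exposed to salt. Jasmonate is made and perceived in roots as well as in leaves, and many of the genes it turns on serve defence in both organs. The 123 genes were all found in the RefSeq gene table, where 116 are protein-coding, 6 are long non-coding RNA (lncRNA) and 1 is a pseudogene. The tables used here give none of them a symbol or a role, so they are described by their levels.

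The labelled tissues were checked with marker genes. Of 16 photosynthesis genes listed for leaflets 5 were measured under a listed symbol (*PsbQ*, *RBCS-2A*, *SBPase*, *PSBR* and *CAB4*), and their mean was 9.34 to 9.92 on the leaflet arrays and 2.55 to 3.91 on the root arrays (log2 values). Of 10 root genes 3 were measured (*fer*, *FRO1* and *PT2*), and *fer*, a regulator of iron uptake, was at 1.17 to 1.79 in leaflets and 5.31 to 9.25 in roots. The other root genes overlapped between the tissues: *FRO1*, a ferric-chelate reductase, was at 4.55 to 6.29 in leaflets and 4.72 to 8.32 in roots, and *PT2*, a phosphate transporter, at 1.06 to 1.37 and 1.28 to 3.98. The mean of these 3 root genes was 3.99 to 4.1 in *res* control roots and 6.58 to 6.97 in WT control roots. It thus differed between the genotypes in control roots, where it was lower in *res*. Whether this has a part in the differences of the selected genes was not tested. In tissue samples, fewer cells of a type and less RNA per cell cannot be told apart.

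One array stood apart for the selected genes. On replicate 1 of the WT control leaflets their mean log2 value was 4.1, against 5.79 on replicate 2 and 5.79 on replicate 3. It was the lowest of the 3 replicates for 112 of the 123 genes (91.1%), compared with 29.8% of all LOC genes. For 85 genes (69.1%) it lay more than 2-fold below the mean of the other replicates, which was the case for 2.85% of all LOC genes and for 38.2% of the genes that met the leaflet condition. The leaflet markers were at 9.78 on this array and at 9.92 and 9.86 on replicates 2 and 3. Replicate 1 lay within 2-fold of the *res* mean for 52 of the 123 genes, and replicates 2 and 3 for 1 gene each. With this array left out, the same conditions chose 157 genes, of which 120 were among the 123. The main counts and medians in leaflets are therefore given with and without it. Of the WT salt roots, replicate 3 had leaflet markers at 2.55 and the other arrays had 3.91 and 3.86.

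**Figure D1:**
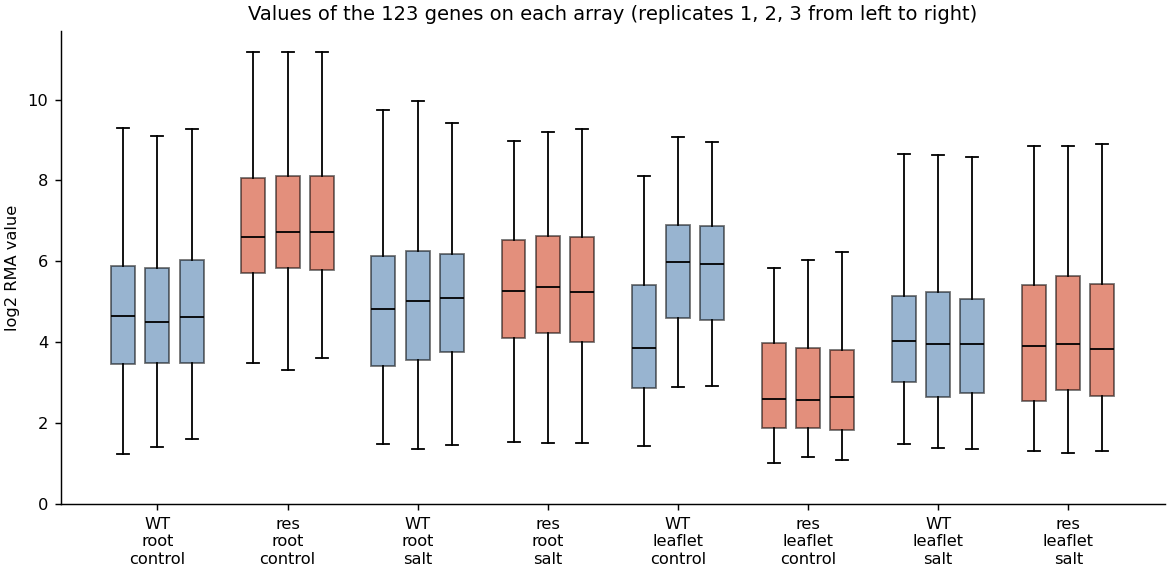
Log2 RMA values of the 123 genes on each of the 24 arrays (boxes, median and quartiles; whiskers, lowest and highest gene; blue, WT; red, *res*; replicates 1, 2 and 3 from left to right). The *res* control roots lie highest and the *res* control leaflets lowest, the salt groups of a tissue lie close together, and replicate 1 of the WT control leaflets has a median of 3.85 against 5.98 and 5.94 on the other arrays of its group.

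In control roots, the 123 genes were 1.31 to 5.22 higher in *res* on the log2 scale, with a median of 2.05. All of them would be called higher by the thresholds of the study (a difference of 2-fold or more whose p, adjusted over all probe sets, lies under 0.05), which 2.96% of all probe sets passed in that direction. In control leaflets they were 1.31 to 5.54 lower, with a median of -2.1, and 119 would be called lower, beside 2.6% of all probe sets. These contrasts chose the genes, so the counts are descriptions. The *res* and WT root arrays did not overlap for any of the 123 genes, and over all LOC genes 24.8% had every *res* array above the WT arrays. In leaflets 17 genes overlapped, each through replicate 1 of the WT, and none did without that array, where the median difference was -2.74. Over all LOC genes 30.0% had every WT leaflet array above those of *res*, and 36.7% without replicate 1.

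**Figure D2:**
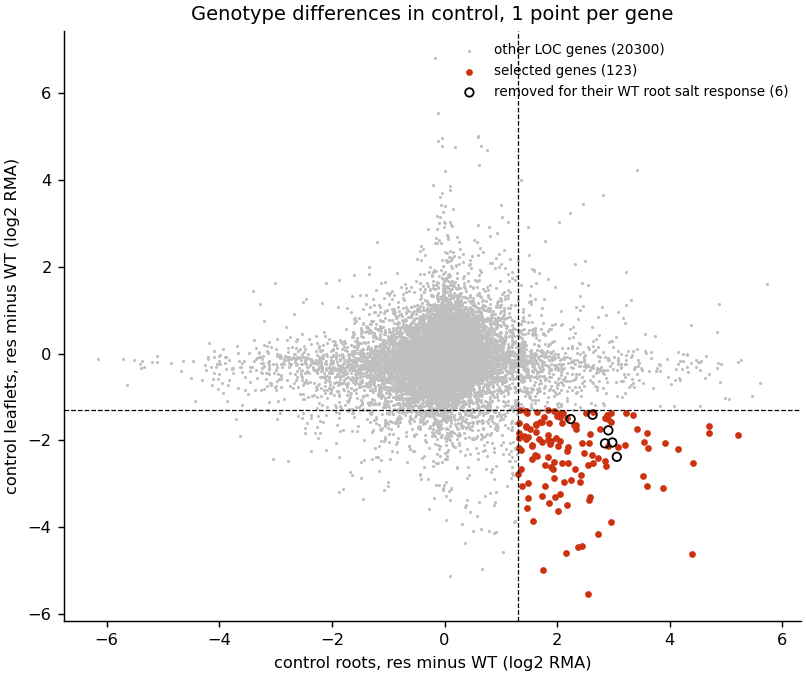
Difference between *res* and WT group means in control roots (horizontal axis) and control leaflets (vertical axis), on the log2 scale, 1 point for each LOC gene. Red points are the 123 selected genes, open circles the 6 genes removed for their WT root response to salt, and dashed lines the limits of 1.3 and -1.3 that the selection used.

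The 4 genes that the leaflet thresholds did not reach were LOC101266119, LOC778308, LOC101266245 and LOC101244399. In all 4, replicate 1 of the WT control leaflets lay below the *res* mean. For LOC101266245, for example, the WT control leaflet arrays gave 3.45, 8.31 and 8.49 and the *res* arrays 4.69, 4.91 and 5.1. The selection was a limit on a continuous scale. Just inside the root limit were LOC101256083, LOC101245612 and LOC101264571, at 1.312, 1.319 and 1.32, and just outside it were LOC101254314, LOC101250588 and LOC101263470, at 1.292, 1.291 and 1.285. In leaflets LOC101248686, LOC101268505 and LOC101255458 were just inside, at -1.311, -1.313 and -1.324. LOC101244716, LOC101257419 and LOC101250962 were just outside, at -1.297, -1.295 and -1.29.

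Levels in WT differed between the tissues in either direction. In WT control plants 53 of the 123 genes were more than 2-fold higher in leaflets than in roots and 20 were more than 2-fold higher in roots, and without replicate 1 of the WT control leaflets 65 and 14. In *res* control plants the root mean was above the leaflet mean for 122 of the genes, against 43 in WT (32 without replicate 1), as the selection favours. After salt the root mean was above the leaflet mean for 89 genes in WT and for 92 in *res*. The shares of all LOC genes in these comparisons of the tissues were not counted. The median over the genes of the group mean was 4.57 in WT and 6.69 in *res* control roots, and 4.86 and 5.32 in the salt roots. In leaflets it was 5.32 in WT and 2.61 in *res* in control, and 3.92 and 3.85 in salt. Over all LOC genes it was also higher in roots: 4.06 in WT and 4.06 in *res* control roots, and 4.15 and 4.26 in salt roots. In leaflets the LOC genes had 3.62 and 3.5 in control and 3.96 and 3.6 in salt. For the selected genes the *res* control roots and the *res* control leaflets were the extremes. Their genotypes lay closer in salt in both tissues, as the selection on the control differences favours.

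Genes were ranked by the smaller of their control differences in roots and leaflets, and LOC101248897 came first. Its values were 1.49, 1.62 and 1.75 in WT control roots and 6.03, 5.88 and 6.15 in *res* control roots, a difference of 4.4 ± 0.1 (SE) or 21.2-fold. The median over all probe sets was 2.02 to 2.05 on the WT control root arrays, above the values of this gene there. In control leaflets WT had 5.57, 6.26 and 6.46 and *res* 1.42, 1.39 and 1.62, so that the difference was -4.63 ± 0.21, and no arrays overlapped in either tissue. In salt it was at 1.55, 1.38 and 1.45 in WT roots and 1.54, 1.5 and 1.52 in *res* roots, and the high level of *res* control roots was not seen in any salt root array. In salt leaflets WT had 1.48, 1.38 and 1.6 and *res* 2.08, 2.76 and 2.45. Its highest levels among the 8 groups were thus those of WT control leaflets and *res* control roots.

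LOC101268109 also had its highest values in those groups, with a lower level that differed by tissue. In control roots it was at 4.46, 4.19 and 4.2 in WT and 7, 7.01 and 7.02 in *res*, and in control leaflets at 6.46, 5.78 and 6.17 in WT and 1.92, 2.01 and 2 in *res*. All 12 salt arrays lay below 3, with means of 2.34 (WT) and 2.74 (*res*) in roots and 1.9 and 2.02 in leaflets. LOC101253022 was the most even of the 10 genes with the largest smaller difference. WT control leaflets had 6.82, 6.95 and 6.86 and *res* 4.17, 4.2 and 4.52, with replicate 1 of the WT among the others, and control roots had 4, 3.88 and 3.83 in WT and 6.56, 6.37 and 6.43 in *res*. Its leaflet means in salt were 3.49 in WT and 3.77 in *res*, which is below both control means.

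Other genes among these 10 kept a high level in salt leaflets. LOC101267468 had 7, 6.79 and 6.99 in WT and 6.88, 6.75 and 6.97 in *res* salt leaflets, and its control leaflets had 5.16, 7.38 and 7.32 in WT and 3.25, 3.36 and 3.32 in *res*. The genotypes overlapped in salt leaflets and did not in control. LOC101251005 was at 2.27, 7.1 and 7.09 in WT control leaflets and 2.9, 1.8 and 2.58 in *res*, so that the WT replicate 1 lay among the *res* arrays. In salt leaflets it was at 6.55, 5.9 and 6.15 in WT and 5.69, 6.17 and 5.87 in *res*. LOC101266119, annotated as a pseudogene, was at 2.5, 7.72 and 7.64 in WT control leaflets, 2.95, 3.52 and 3.59 in *res* control leaflets, and 6.21 to 7.17 over the 6 salt leaflet arrays. For both of these genes the leaflet difference in control rests on WT replicates 2 and 3.

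The remaining genes of the 10 lay between these patterns. LOC101259138 had group means of 6.26 (WT) and 2.37 (*res*) in control leaflets and 4.6 and 4.99 in salt leaflets. LOC101251977 had means of 5.94 and 2.57 in control leaflets and 3.63 and 3.8 in salt leaflets. LOC101263872 gave 1.55, 6.37 and 5.6 in WT control leaflets, where *res* had 1.36, 1.43 and 1.46, and salt means of 2.38 (WT) and 3.56 (*res*). In LOC101252571 the WT salt leaflets were higher than the *res* salt leaflets, at means of 6.61 and 4.78. Over these 10 genes the *res* level in control leaflets was between 1.42 and 4.29, and in control roots between 4.4 and 8.77.

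**Figure D3:**
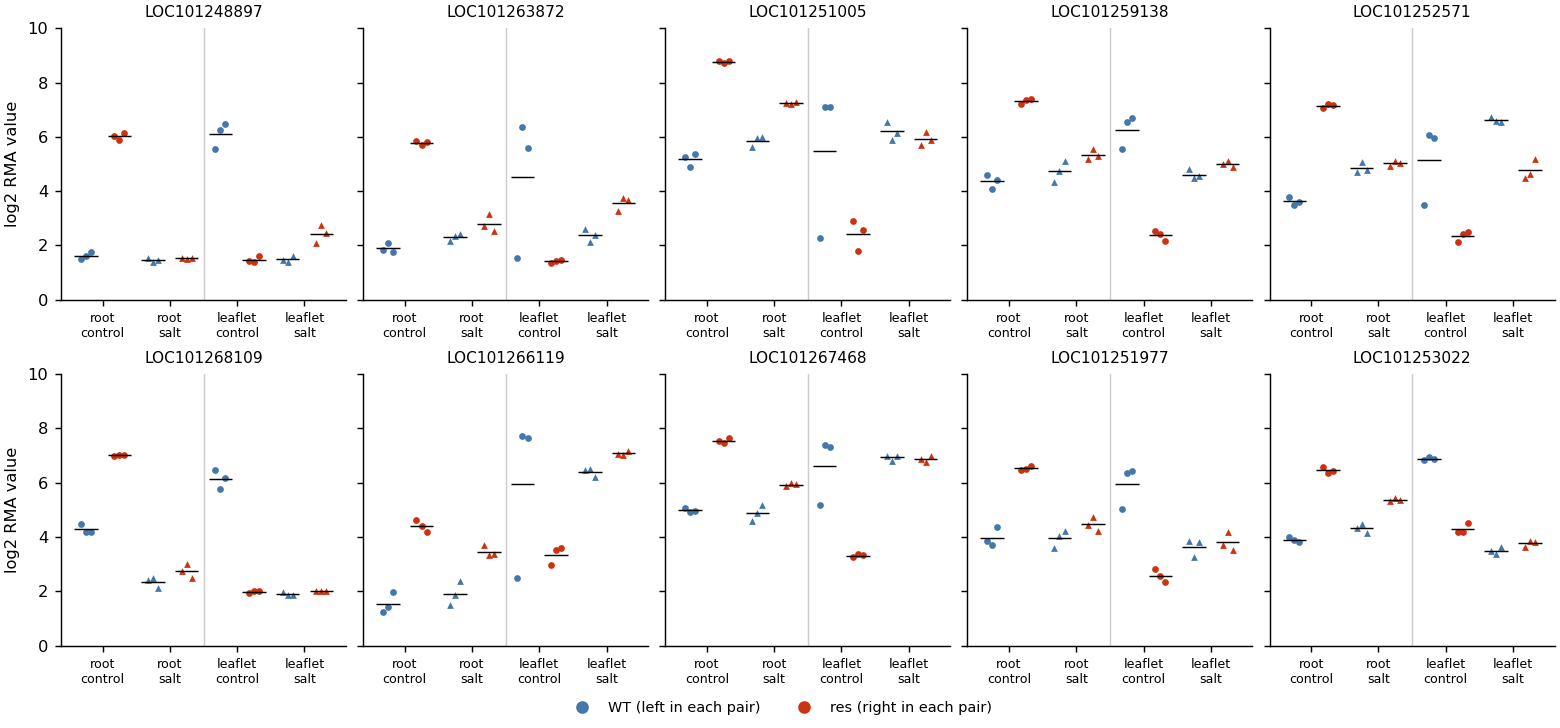
Log2 RMA values of the 10 genes with the largest smaller difference, array by array (blue, WT; red, *res*; circles, control; triangles, salt; black lines, group means of 3 arrays). In control every gene is higher in *res* roots and has a lower mean in *res* leaflets. In LOC101263872, LOC101251005 and LOC101266119 replicate 1 of the WT control leaflets lies near the *res* arrays.

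The selection did not use the salt leaflet arrays, so the genotypes could be tested there. Of the 123 genes, 7 were called higher in *res* (5.69%), 16 were called lower (13%) and 100 were not called. Among all LOC genes 2.18% were called higher and 7.84% lower, and over all probe sets 1.15% and 3.21%. Both shares were above those of the LOC genes, but lay between those of the genes that met either control condition alone. Of the 715 genes that met the leaflet condition 31 were called higher (4.34%) and 204 lower (28.5%), and of the 805 that met the root condition 59 were called higher (7.33%) and 91 lower (11.3%). An unadjusted limma p under 0.05 was seen for 49 of the 123 genes and for 9894 of the 20429 LOC genes, which is a larger share. The median difference was 0.11, beside -0.2 for all LOC genes and -0.11 for all probe sets. In control it had been -2.1 for the same genes, and the selection on the control difference favours a smaller one in salt. The difference in salt leaflets was within 1 in either direction for 92 of the 123 genes and within 0.5 for 55. Over all LOC genes it was within 0.5 for 13877 of 20429, a larger share. Of the 123 genes 10.6% were at least 2-fold higher in *res* and 14.6% at least 2-fold lower, beside 2.33% and 8.03% of all LOC genes. Without replicate 1 of the WT control leaflets, whose spread enters the error of the fit, the median SE of the difference was 0.14 in place of 0.34, and 13 genes were called higher and 18 lower. With quantile normalization repeated within leaflets, the median over all probe sets was 0 in place of -0.11, and 15 genes were called higher and 10 lower, so the split between directions depended on the scaling.

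In 6 of the 7 genes higher in *res* salt leaflets the WT salt mean was at least 2-fold below the WT control mean. This held for 68 of the 123 genes and for 5.9% of all LOC genes. LOC101246812 had 4.1, 3.65 and 3.66 in WT salt leaflets and 6.34, 6.58 and 6.55 in *res*, a difference of 2.69 ± 0.21 (limma, adjusted p = 3.35e-06). Its WT control leaflets had been at 6.76, 7.69 and 7.6 and those of *res* at 5.38, 5.19 and 5.28, so that the order of the genotypes was the reverse of that in control. LOC101267711 was at 1.97, 1.69 and 2.03 in WT salt leaflets and 4.38, 4.56 and 4.24 in *res*, which is 2.5 ± 0.4 higher (adjusted p = 0.00096). In control leaflets the WT had been at 4.94, 6.86 and 7.05 and *res* at 1.87, 1.84 and 1.72. The WT level in salt and the *res* level in control were thus both near the median over all probe sets. That median was 1.98 to 2 on the WT salt leaflet arrays and 1.93 to 1.97 on the *res* control leaflet arrays. LOC101263673 (2.47 ± 0.4, adjusted p = 0.000941), LOC101247288 (1.93 ± 0.42, adjusted p = 0.00639) and LOC101265598 (1.93 ± 0.12, adjusted p = 4.98e-07) followed. LOC101265598 had tight WT control leaflets (5.96, 5.91 and 5.91), so its reversal does not rest on replicate 1: *res* control leaflets were at 4.23, 3.99 and 4.3, WT salt leaflets at 4.25, 3.81 and 4.16, and *res* salt leaflets at 6.02, 6.03 and 5.96. The exception was LOC101265038, whose mean in WT leaflets was 4.37 in salt and 3.37 in control, and in *res* leaflets 5.49 and 1.94. In 6 of the 7 the *res* salt mean was at least 2-fold above the *res* control mean, which held for 67 of the 123 genes and for 4.49% of all LOC genes.

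The 16 genes that stayed lower in *res* salt leaflets differed by 1.02 to 3.27. In 5 of them the WT salt mean was at least 2-fold above the WT control mean, and in 1 it was at least 2-fold below. Among the 123 genes it was at least 2-fold above in 12 and below in 68, and among all LOC genes in 11.2% and 5.9%. LOC778308 had 6.36, 6.25 and 6.02 in WT and 2.87, 3.56 and 2.38 in *res* salt leaflets, a difference of -3.27 ± 0.84 (adjusted p = 0.0165) with no overlap of arrays. LOC101247825 was at 5.09, 4.57 and 5.07 in WT and 2, 1.94 and 1.73 in *res* (-3.02 ± 0.15, adjusted p = 7.13e-08). In control its levels had been 2.95, 3.11 and 3.38 in WT and 1.71, 1.79 and 1.83 in *res*, so that the distance was larger in salt. LOC101252373 had 6.89, 6.67 and 6.71 in WT and 4.59, 4.4 and 5.11 in *res* (-2.06 ± 0.34, adjusted p = 0.00105). LOC101250247 (-2.09 ± 0.55, adjusted p = 0.0193) and LOC101252571 (-1.83 ± 0.51, adjusted p = 0.024) had WT salt means of 6.77 and 6.61, against 4.67 and 4.78 in *res*. The calls of LOC778308, LOC101250247 and LOC101252571 did not hold when some single salt leaflet arrays were left out, with adjusted p of 0.0509 to 0.0821. For LOC101250247 and LOC101252571 this was so for most of these arrays. An ordinary ANOVA without moderation did not call the genes either (adjusted p = 0.0679, 0.0734 and 0.0831). With quantile normalization repeated within leaflets LOC101252571 was not called (limma, adjusted p = 0.0504). The arrays of these genes did not overlap between the genotypes. Without replicate 1 of the WT control leaflets their adjusted p were 1.14e-06, 1.37e-07 and 6.91e-06.

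In salt roots, the test was made on the 129 genes that met both control conditions, since the 6 removed genes were removed by their salt root levels. Of the 129, 20 were called higher in *res* (15.5%), 4 lower (3.1%) and 105 were not called. By limma 93 of the 129 had an unadjusted p under 0.05, and so had 7236 of the 20429 LOC genes. Among all LOC genes 2.33% were called higher and 2.37% lower, and over all probe sets 1.18% and 0.985%. The share called higher was above the background and the share called lower was near it. The median difference was 0.45, beside 0.04 for all LOC genes. The genes that met the root condition alone had a median of 0.53, and 217 of those 805 were called higher. All 24 called genes were among the 123. This was fixed by the removal, since the 6 removed genes lay within 1 in salt roots and could not pass 2-fold. For each of the 123 the root difference was larger in control than in salt, as the selection on the control difference favours.

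The root difference that remained in salt was largest in 5 genes, chosen after their values were seen. LOC101247130 was at 3.13, 3.52 and 4.15 in WT and 5.97, 5.89 and 5.87 in *res* salt roots (2.31 ± 0.2, adjusted p = 9.69e-06), after 3.61, 3.52 and 3.89 in WT and 8.37, 8.27 and 8.44 in *res* control roots. LOC101244399 was at 2.68, 2.79 and 3.69 in WT and 5.24, 5.5 and 5.21 in *res* salt roots (2.26 ± 0.21, adjusted p = 2.13e-05). The *res* level of LOC101244399 in salt roots was close to that in its control roots (5.36, 5.4 and 5.63), whereas that of LOC101247130 was lower. LOC101261789 (1.87 ± 0.16), LOC101246812 (1.56 ± 0.12) and LOC101266119 (1.55 ± 0.23) came next. Of the 4 genes lower in *res* salt roots, LOC101264399 (-1.49), LOC101244650 (-1.24), LOC101250247 (-1.21) and LOC101247825 (-1.14), the WT salt mean was at least 2-fold above the WT control mean in 3. Such a difference was seen in 17 of the 123 genes and in 3.69% of all LOC genes.

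The calls after salt were then set side by side for both tissues. Of the 129, 87 were called in neither, 3 were lower in both and 1, LOC101246812, was higher in both. Shares of all LOC genes for calls across both tissues were not counted. In 3 genes the order of the control plants was still called after salt, with *res* higher in roots and lower in leaflets: LOC101247130, LOC101255509 and LOC101266631. LOC101247130 had 3.15, 3.25 and 3.14 in WT and 1.76, 1.85 and 1.89 in *res* salt leaflets (-1.34 ± 0.15, adjusted p = 5.64e-05), beside its higher *res* roots given above. LOC101255509 was 1.16 ± 0.14 higher in *res* salt roots (adjusted p = 0.000152) and 1.48 ± 0.34 lower in its salt leaflets (log2 difference -1.48, adjusted p = 0.00922), a call that was not made with quantile normalization repeated within leaflets (adjusted p = 0.0507). LOC101266631 was 1.03 ± 0.2 higher in *res* salt roots and had a leaflet difference of -1.64 ± 0.32, and its root call, at 2.04-fold, was close to the limit of 2-fold. The leaflet calls of LOC101247130 and LOC101266631 do not rest on a low replicate 1, since in both genes that array was the highest of the WT control leaflets. Without it the control leaflet difference of LOC101266631 was -0.83, outside the limit of the selection, and that of LOC101247130 was -1.47.

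**Figure D4:**
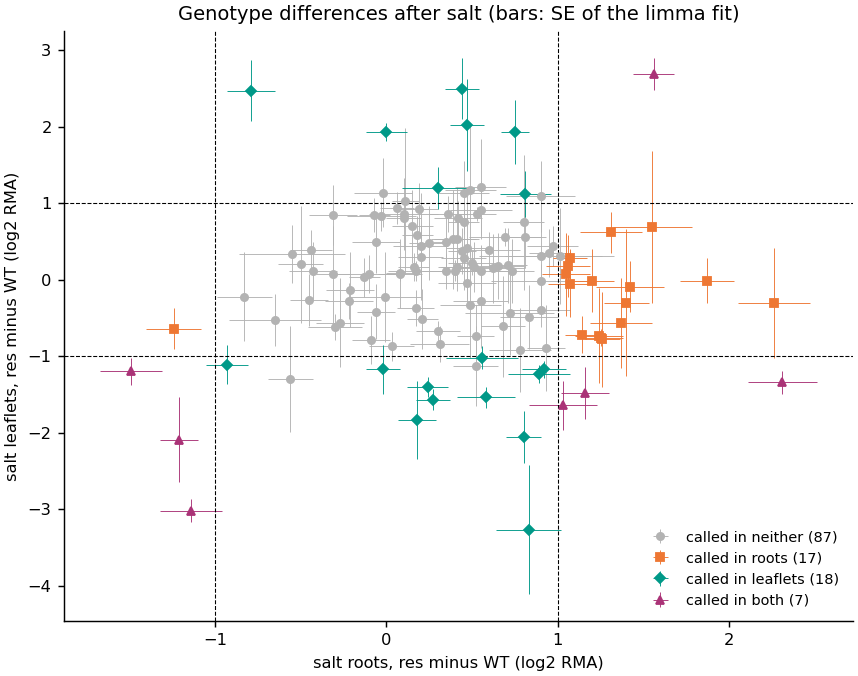
Difference between *res* and WT after salt in roots (horizontal axis) and leaflets (vertical axis), on the log2 scale, for the 129 genes that met both control conditions (bars, SE of the limma fit; dashed lines, 2-fold). Most points, 87, were called in neither tissue and lie around the centre. The 3 genes called in both with *res* higher in roots and lower in leaflets lie at the lower right.

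Whether the genotype effect in salt differed between the tissues was then tested in a fit of all 24 arrays, a comparison added after the data were seen. The labels do not say whether root and leaflet arrays came from the same plants, and the fit treated them as independent. The effect in leaflets minus that in roots was called higher for 4 of the 129 genes (3.1%) and lower for 24 (18.6%). Over all LOC genes 3.63% were called higher and 12.5% lower. The median was -0.28 for the 129 genes and -0.23 for all LOC genes. The median of the selected genes was close to that of LOC genes in general. Their share called lower was above the LOC background and below that of the genes that met the root condition alone (276 of 805, 34.3%) or the leaflet condition alone (194 of 715, 27.1%). Without replicate 1 of the WT control leaflets 8 of the 129 were called higher and 34 lower, beside 3.88% and 12.9% of all LOC genes.

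The levels in salt and control are given side by side without a test, as the control arrays are those that the selection used. In *res* roots the salt mean was below the control mean by a median of 1.59 (log2 difference -1.59), and for 95 of the 123 genes by 2-fold or more. In WT roots the median difference was 0.27, with 17 genes at least 2-fold higher in salt and 6 at least 2-fold lower. In *res* leaflets it was 1.19, with 67 genes at least 2-fold higher in salt and 0 at least 2-fold lower. In WT leaflets it was -1.23, with 68 genes at least 2-fold lower and 12 at least 2-fold higher, and without replicate 1 it was -1.61. Over all LOC genes the medians, in the same order, were 0.09, 0.04, 0.02 and 0.09. Of all LOC genes 3.24% were at least 2-fold lower in salt in *res* roots. In WT roots 3.69% were at least 2-fold higher and 2.91% lower. In *res* leaflets 4.49% were at least 2-fold higher and 4.26% lower, and in WT leaflets 11.2% higher and 5.9% lower. In 28 genes the WT leaflet level was at least 2-fold lower in salt than in control while the *res* level was at least 2-fold higher. The share of all LOC genes with both changes was not counted. The *res* salt mean was above the WT control mean in roots for 97 genes and below it in leaflets for 101. The selection took genes whose WT control means were below those of *res* in roots and above them in leaflets, which favours both counts. Their shares over all LOC genes were not counted.

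The 6 lncRNA genes were 1.73 to 4.14 higher in *res* control roots and 1.33 to 2.65 lower in its control leaflets (log2 differences -1.33 to -2.65). In salt roots the differences were 0.25 to 0.78, with 0 of 6 called by limma. In salt leaflets they were -0.92 to 1.2, with 1 of 6 called, LOC101266243 (adjusted p = 0.00927), whose differences between salt and control were -1.85 in WT and 1.4 in *res*, and without replicate 1 of the WT control leaflets it was again 1 of 6.

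The 6 genes removed from the selection had WT root levels 1.51 to 2.07 higher in salt than in control. LOC101245158 was at means of 2.8 (WT) and 5.86 (*res*) in control roots and 4.86 and 5.33 in salt roots. In salt leaflets it was 2.02 ± 0.6 higher in *res* (adjusted p = 0.034), after means of 5.29 in WT and 2.91 in *res* control leaflets. LOC101267231 was the other gene of the 6 called in salt leaflets, with a difference of -1.17 ± 0.32 (adjusted p = 0.024), and without replicate 1 of the WT control leaflets the calls were the same. LOC101268143, LOC101250479 and LOC101267385 had WT root differences between salt and control of 1.89, 1.53 and 1.78 and leaflet differences in salt of -0.56, 0.31 and -0.01.

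A further 21 genes with a symbol met both control conditions, of which 3 (*SlCKX2*, *P69B* and *THT1-3*) also met the condition on WT salt roots by which LOC genes were removed. The functions of the 21 were not tested as a list. They hold *aos*, an enzyme of jasmonate synthesis, *GA2ox3*, which inactivates gibberellins, *PR1b1*, a pathogenesis-related protein, *ACS6*, an enzyme of ethylene synthesis, *tXET-B2*, which modifies cell wall xyloglucan, *EXLA1*, an expansin-like protein, *P69B*, a subtilisin-like protease, *Ve2*, a receptor-like protein, and *AADC1A*, *AADC2* and *THT1-3*, which act on aromatic amino acids and their amines. The others were *ER5*, *cevi16*, *SlCKX2*, *pip1*, *WLK*, *Wfi1*, *CZFP1*, *SRG2*, *Dea1* and *Wiv-1*. By limma, *P69B* would not be called in control leaflets (adjusted p = 0.147), nor *AADC2* in control roots (adjusted p = 0.116). In salt leaflets 2 of the 21 were called higher in *res* (*ER5*, 3.79 ± 0.18, and *SRG2*, 2.67 ± 0.61), 9 lower and 10 were not called, and without replicate 1 of the WT control leaflets 3 were called higher and 10 lower. The backgrounds given above for salt leaflets, 2.18% and 7.84% of LOC genes, also stand beside these counts. In salt roots 5 were called higher (2.33% of LOC genes were), with *aos* at 3.23 ± 0.13 and *GA2ox3* at 1.92 ± 0.12, and 0 lower by limma. Replicate 1 of the WT control leaflets was the lowest of its group for 19 of the 21.

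No 2 of the 123 genes were direct neighbours in the gene order of the RefSeq table (assembly SLM_r2.1), but some stood close to each other or to genes of this list. LOC101266245 is next to *AADC1A*, an aromatic amino acid decarboxylase. With 1 gene between each, LOC101266542 and *THT1-3*, a tyramine hydroxycinnamoyltransferase, follow, and LOC101264847 lies on the other side of *AADC1A* with 6 genes between, and LOC101244399 beyond *THT1-3* with 9 between. In control roots *AADC1A* was at 5.6, 5.34 and 5.92 in WT and 9.14, 8.92 and 9.18 in *res*, LOC101266245 at 7.7, 7.7 and 7.62 and 10.24, 10.18 and 10.35, LOC101266542 at 7.24, 7.05 and 6.94 and 8.78, 8.82 and 8.83, and *THT1-3* at 8.03, 7.78 and 7.85 and 10.51, 10.67 and 10.62. The genotypes did not overlap in any of them. In salt leaflets these neighbours went apart. LOC101266542 (-1.11 ± 0.26, adjusted p = 0.0104), *AADC1A* (-1.79 ± 0.35, adjusted p = 0.00366) and *THT1-3* (-2.41 ± 0.36, adjusted p = 0.000517) were lower in *res*. LOC101266245 had 7.8, 7.8 and 7.89 in WT and 8.84, 8.84 and 8.91 in *res*, a difference of 1.03 ± 0.95 that was not called (adjusted p = 0.508). Without replicate 1 of the WT control leaflets its SE was 0.11 and the call was made (adjusted p = 2.88e-05). LOC778308 and *P69B* have 2 genes between them. *P69B* was 3.91 ± 0.15 higher in *res* control roots, and LOC778308 was 4.41 ± 0.19 higher. Whether probe sets of neighbouring genes shared signal through similar sequences was not tested.

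**Figure D5:**
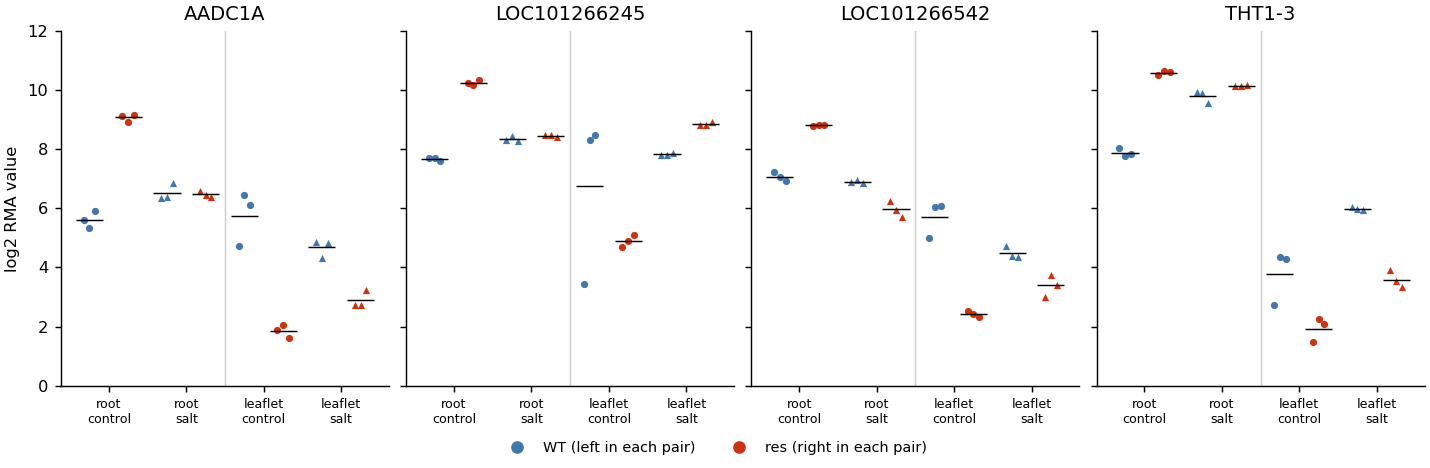
Log2 RMA values of *AADC1A*, LOC101266245, LOC101266542 and *THT1-3*, in their order on the genome, array by array (blue, WT; red, *res*; circles, control; triangles, salt; black lines, group means of 3 arrays). All are higher in *res* control roots. In salt leaflets LOC101266245 is higher in *res* and the other genes are lower.

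For 5 of the 123 genes other probe sets were also on the array, 20 in all, of which 15 were of LOC101251977. None of them met both control conditions. For LOC101257001 the other probe set gave 2.3 in control roots and -1.2 in control leaflets, and for LOC101248717 it gave 1.29 and -1.21, both close to the limits. Among those of LOC101251977, 1 gave 2.53 in control roots and 0.77 in control leaflets, where its direction was the opposite of that on the selected probe set. For LOC101268703 a brighter probe set than the one selected gave 1.15 and -0.77. For these genes the control differences depended on the probe set.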

How the data were processed

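Expression was measured on 24 Tomato Gene 1.1 ST arrays in 8 groups of 3. Robust multi-array average (RMA) was applied by the authors, and what they deposited is 1 log2 intensity for each of 67795 probe sets and array, from 0.574 to 12.6 without gaps. They were used as given, with no filter on low values. The median over all probe sets was 1.84 to 2.17 on the 24 arrays, and some of the low levels given above lie at or below it. Partek is named in the submitters' processing notes, with no version. The number of arrays limits the precision. By the platform's table, 23194 probe sets carry 1 symbol and 170 carry several, while 44431 are unnamed. For each gene the probe set with the highest mean among those that met the selection was used.

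The 12 arrays of a tissue were fitted as 4 groups with limma 3.58.1 in R 4.3.3, with Benjamini-Hochberg adjustment of each contrast over the whole array. Genes were called at a 2-fold or larger difference with adjusted p under 0.05, as the study set its limits. Standard errors (SE) are those of the fit, pooled over the 12 arrays. Arrays of the same replicate number did not deviate together, so the fit has no block. Of 50 probe sets simulated in leaflets with a rise of 1.32 on the log2 scale 48 were called, and of 50 in roots 47, and among 67595 unchanged ones 0 and 1. The most variable probe sets were not drawn for these changes. The selected genes had a median standard deviation of 0.97 in WT control leaflets, against 0.21 for LOC genes. The simulated share called therefore does not carry over to them in leaflets. Figures were drawn with matplotlib 3.10.9.

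The genes and the lists were chosen with earlier results of these data known. The text names the 10 genes with the largest smaller-of-2 control differences, up to 5 called in each direction in salt leaflets, 3 on each side of the limits, neighbours in gene order and up to 5 removed genes. Others were chosen after their values were seen. Lists by protein sequence, by description and by promoter motif could not be applied, since neither sequences nor descriptions were among the tables used, and no sequence is shown. Alternatives were other fits, normalizations, probe set choices and leaving out each array.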

Additional observations from a re-analysis of the deposited data

Results flagged for a closer look

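The effect of the genotype in salt differed between leaflets and roots for 13 of 24 LOC genes, those named above for the largest differences in control, salt leaflets or salt roots or for the control order in salt, by a test of the difference itself in a fit of all 24 arrays (limma, adjusted over all probe sets, chosen after the data were seen). Values are the log2 difference of *res* and WT in salt leaflets minus that in salt roots. Many of these genes were named for their differences in salt, which enter this test, so the count of 13 is a description. Over all LOC genes 3.63% were called above 0 and 12.5% below 0. The difference was below 0, so that *res* stood lower in leaflets than in roots relative to WT, for LOC778308 (-4.1), LOC101247130 (-3.65), LOC101252373 (-2.86), LOC101266631 (-2.67), LOC101255509 (-2.64), LOC101244399 (-2.58), LOC101252571 (-2.02), LOC101247825 (-1.89) and LOC101261789 (-1.88). It was above 0 for LOC101263673 (3.26), LOC101267711 (2.05), LOC101265598 (1.92) and LOC101246812 (1.13). Among the other genes named above the difference was also called for LOC101255458 (-2.13), LOC101268505 (-2.01) and LOC101248686 (-1.58), which lay just inside the leaflet limit, for LOC101267231 (-1.15) of the 6 removed genes, and for 14 of the 21 genes with a symbol, 12 of them below 0, with *pip1* at -4.09, and 2 above 0, *SRG2* at 2.19 and *ER5* at 1.86. The calls of the 13 genes held without replicate 1 of the WT control leaflets, without replicate 3 of the WT salt roots, with the 4 salt groups alone and with replicate number as a block. Groups of 3 arrays are too small for a test of outlying arrays, and no other file or column was left unused.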

How the results depend on the processing

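The selection gave 106 to 157 genes when single arrays were left out, the latter without replicate 1 of the WT control leaflets, and 110 to 123 under the other choices. In salt leaflets the counts of called genes were 17 to 31 in all, 6 to 13 higher and 11 to 18 lower when single arrays were left out, against 23, 7 and 16. A fit of only the 2 groups compared gave 13 higher, and quantile normalization within leaflets 15 higher and 10 lower (60% of the calls higher in place of 30.4%, and over all probe sets 47.7% in place of 26.5%). With replicate 1 of the WT control leaflets left out of both the selection and the fit, a setting added after the data were seen, 37 of 157 genes were called, 17 of them higher. For the 129 genes in salt roots the counts were 22 to 31 in all, 18 to 25 higher and 4 to 6 lower without single arrays, against 24, 20 and 4, and all 24 arrays in 1 fit gave 13 higher. Of single genes, no alternative reversed a direction. The call was lost in 19 of 260 combinations of gene and alternative in salt leaflets, 4 of 140 in salt roots and 0 of 52 for the difference between tissues, and LOC101266119 in salt roots was not called with all 24 arrays in 1 fit (adjusted p = 0.326). The causes of these losses were not tested.

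Replicate number as a block left the counts at 23 genes in salt leaflets, 7 higher and 16 lower, and at 24 in salt roots, 20 higher and 4 lower. Same-numbered arrays of the genotypes had correlations of their deviations of -0.04 to 0.1, so the numbers do not pair them.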
